A study of Mus musculus with 6 samples.

Results

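The sirtuins of the mouse, Sirt1 to Sirt7, are the 7 genes described here, taken by name from the 16623 genes of a single-cell RNA sequencing table of the liver. The livers came from 3 wild-type (WT) mice and 3 SIRT7-/- mice (KO), all 5 to 6 months of age. SIRT7-/- is a germline null genotype, so every cell type of these mice carries it. The strain, and the part of the gene that the allele lacks, are not given in the sources used here. Hepatocytes and nonparenchymal cells of each liver were mixed in equal number and loaded on the 10x Genomics Chromium platform, which reads the 3′ end of RNA and counts each molecule once by its unique molecular identifier (UMI). The questions were which sirtuins each liver cell type expresses and whether any of them changes when Sirt7 is lost.

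Sirtuins are enzymes that use NAD+ as a cosubstrate to remove acetyl or other acyl groups from lysines of proteins. SIRT1, SIRT6 and SIRT7 act in the nucleus, where SIRT6 and SIRT7 are bound to chromatin and SIRT7 is concentrated in the nucleolus, and SIRT2 is mainly cytosolic. SIRT3, SIRT4 and SIRT5 are mitochondrial, and in the liver SIRT3 and SIRT5 are known for acting on enzymes of fatty acid oxidation and the urea cycle.

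In genome build GRCm38, Sirt1 lies at chr10:63319005-63381704 on the minus strand and Sirt2 at chr7:28766735-28788661 on the plus strand. Sirt3 lies at chr7:140863666-140882309 on the minus strand, Sirt4 at chr5:115478010-115484725 on the minus strand, and Sirt5 at chr13:43365496-43395203 on the plus strand. Sirt6 lies at chr10:81621785-81627797 and Sirt7 at chr11:120618372-120625240, both on the minus strand. Of these, Sirt4, Sirt5 and Sirt6 overlap no other annotated gene. The 5′ end of Sirt3 overlaps Psmd13 by 342 bases and its 3′ end overlaps Ric8a by 707 bases, both on the other strand. Sirt2 overlaps Nfkbib by 778 bases on the other strand at its 5′ end, Sirt7 overlaps Mafg by 124 bases on its own strand at its 5′ end and holds the microRNA gene Mir6936, and Sirt1 holds Gm16145 on the other strand. Whether strand was used in the counting is not given in the sources used here, so reads in these overlaps cannot be told apart.

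The table held 11610 cells. WT mice 1, 2 and 3 had 1243, 933 and 1094 cells with 3109516, 2511947 and 2731232 UMIs. KO mice 1, 2 and 3 had 5609, 2179 and 552 cells with 11069411, 6065832 and 2572107 UMIs. Levels are given as CP10K, the counts per 10000 counts of a cell, averaged over the cells of a mouse. The median cell held 1630 to 3875 UMIs depending on the mouse, and the mouse, not the cell, is the replicate throughout. Each molecule gives 1 tag at its 3′ end, so the levels carry no correction for gene length.

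Cells were clustered without the sirtuins and named after marker genes. The classes large enough to compare were hepatocyte-like (1187 cells), macrophage-like (3715), T/NK-like (1992), dendritic-like (1495), endothelial-like (532), plasma B-like (439) and B-like (161), and a cluster of 1750 cells that is called Mup/Hbb-led after its leading genes. All 20 hepatocyte markers were detected in the Mup/Hbb-led cluster. Of the marker lists scored, the hepatocyte list was the highest in it (mean z score 1.73, with stellate next at -0.235). But its 10 leading genes held 3 hemoglobin genes and none of those markers, and it was given no cell type name. Its other leading genes were Mup17, Mup9, Sult2a1, Sult2a5, Sult2a6, Cyp2c50 and Pcbd1. The hemoglobin came from few cells, with 8 cells over 1000 CP10K in WT mouse 1 and 1 in KO mouse 1. Hepatocyte-like cells were led by Slc22a30, Mlxipl, Abcc2, Gcgr, G6pc and Cyp7a1, and they were rich in nuclear RNA. Malat1 lay at 299 to 545 CP10K in the hepatocyte-like cells of the 6 mice against 0.398 to 16.9 in the Mup/Hbb-led cells, and Xist at 161 to 241 against 0.17 to 3.37. The leading genes of the larger dendritic-like cluster held as many basophil as dendritic markers (2 each). The mixture of classes differed between mice, with 49.1% of the cells hepatocyte-like in KO mouse 3 and 2.29% in KO mouse 2, and 47.2% macrophage-like in KO mouse 1 against 4.42% in WT mouse 1. A mouse entered a comparison with at least 20 cells of the class, which gave 3 mice per genotype except for endothelial-like (3 WT and 2 KO), B-like and plasma B-like cells (2 and 2).

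Sirt7, the targeted gene, was examined first. Over all cells its level was 0.718, 0.512 and 0.546 CP10K in the WT mice and 0.1, 0.0814 and 0.139 in the KO mice. Every KO mouse lay below every WT mouse, and the residual Sirt7 of the KO mice rested on 100, 49 and 43 UMIs. The exact permutation test, two-sided, gave p = 0.1, the smallest that 3 mice against 3 allow. Since the deleted part of the gene is not known here, these UMIs cannot be placed inside or outside it. Over all cells, where the mixture of classes enters, the other sirtuins overlapped between the genotypes. Sirt6, with the lowest p of them, lay at 0.0964, 0.0601 and 0.0582 CP10K in WT and 0.0781, 0.0764 and 0.138 in KO (exact permutation p = 0.5). Sirt3 ranged from 0.406 to 1.08 in WT and from 0.413 to 1.81 in KO (exact permutation p = 0.8), with KO mouse 3 the highest. In such sums over mixed cells, fewer cells of a type and less RNA per cell cannot be told apart.

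Sirt7 fell in hepatocyte-like, macrophage-like and T/NK-like cells of the KO mice, and lay lower in every compared KO mouse than in every compared WT mouse in each of the 8 classes. In hepatocyte-like cells its level was 1.41, 1.26 and 1.66 CP10K in the WT mice (123, 37 and 14 UMIs) and 0.337, 0.383 and 0.186 in the KO mice (19, 2 and 25 UMIs). The genotypes did not overlap, and the KO mean was 20.9% of the WT mean. Computed on log2(CP10K + 0.05), a scale that understates the change of low genes, the log2 fold change was -2.13 with a standard error of 0.43, and the adjusted p from limma over all genes of the class was 0.0258. Of 10222 genes tested in these cells, 0.274% passed the same threshold of 0.05. Mafg, the neighbour that overlaps Sirt7, had a log2 fold change of 0.69 ± 0.39 there (SE, limma adjusted p = 0.584).

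In macrophage-like cells, Sirt7 lay at 0.445, 0.959 and 0.444 CP10K in the WT mice and at 0.0940, 0.0801 and 0.0409 in the KO mice. WT mouse 2 was the highest, on 10 UMIs, and no KO value came near the WT range. On the log2 scale the difference was -2.39 ± 0.41 (SE, limma adjusted p = 0.0349), where 0.201% of genes were called. In T/NK-like cells the WT mice were close together, at 0.718, 0.828 and 0.731 CP10K, and so were the KO mice, at 0.0870, 0.110 and 0.0905. This was a difference of -2.47 ± 0.35 log2 units (SE, limma adjusted p = 0.00805), where 0.11% of genes were called.

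In the Mup/Hbb-led cells of the KO mice, 1 UMI of Sirt7 was found among 1236935, against 51 among 1602399 in the WT mice. The level of the summed UMIs was 0.318 per 10000 in WT (exact Poisson 95% interval 0.237 to 0.418) and 0.00808 in KO (0.000205 to 0.045), intervals that cover counting error only. The mouse values were 0.418, 0.158 and 0.323 CP10K in WT and 0.0133, 0 and 0 in KO. The groups did not overlap, but the log2 fold change of -2.61 ± 0.63 (SE) had an adjusted p of 0.0686 in limma, where 0.48% of genes were called. In dendritic-like cells, Sirt7 lay at 0.691, 0.494 and 0.601 CP10K in WT and at 0.0429, 0.0650 and 0.293 in KO. KO mouse 3, with 10 of the 20 KO UMIs in 50 cells, was the highest of the KO mice and still below each WT mouse. Its log2 fold change was -2.06 ± 0.45 (SE, limma adjusted p = 0.177), where 0.0308% of genes were called.

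The remaining classes held few Sirt7 UMIs, counted here over all mice. Endothelial-like cells had 14 in WT and 3 in KO, with a log2 fold change of -1.89 ± 0.85 (SE, limma adjusted p = 0.629) where 0.337% of genes were called. B-like cells had 10 and 4, with -2.33 ± 1.35 (SE, limma adjusted p = 0.921) where 0.0108% were called. Plasma B-like cells had 14 and 4, with -0.97 ± 0.65 (SE, limma adjusted p = 0.811) where 0.0782% were called. A lack of overlap was common among all genes in classes with few mice. Lower KO values without overlap were met by 3.96% of genes in hepatocyte-like, 9.9% in macrophage-like, 6.34% in T/NK-like, 8.85% in Mup/Hbb-led, 7.13% in dendritic-like, 12.7% in endothelial-like, 12.6% in B-like and 11.2% in plasma B-like cells.

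Each of the 3 calls for Sirt7 was lost when certain single mice were left out, while the direction held. With 1 mouse left out at a time, the log2 fold change lay at -2.30 to -1.86 in hepatocyte-like cells. It lay at -2.57 to -2.05 in macrophage-like and -2.54 to -2.41 in T/NK-like cells. In hepatocyte-like cells the limma adjusted p became 0.139, 0.0788 and 0.106 without WT mouse 1, 2 or 3. In macrophage-like cells it became 0.138, 0.139 and 0.0745 without WT mouse 1, 2 or 3, and 0.0719 and 0.218 without KO mouse 2 or 3. In T/NK-like cells it became 0.0851 and 0.131 without WT mouse 1 or 2, and in dendritic-like cells it fell to 0.0143 without KO mouse 3. In endothelial-like, B-like and plasma B-like cells, where Sirt7 was not called, only KO mice 1 and 2 had enough cells, so leaving out either sets a single KO mouse against WT. Without KO mouse 2 the log2 fold change was -1.17, -0.70 and -0.40 in these classes, and without KO mouse 1 it was -2.62, -3.96 and -1.54.

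**Figure D1:**
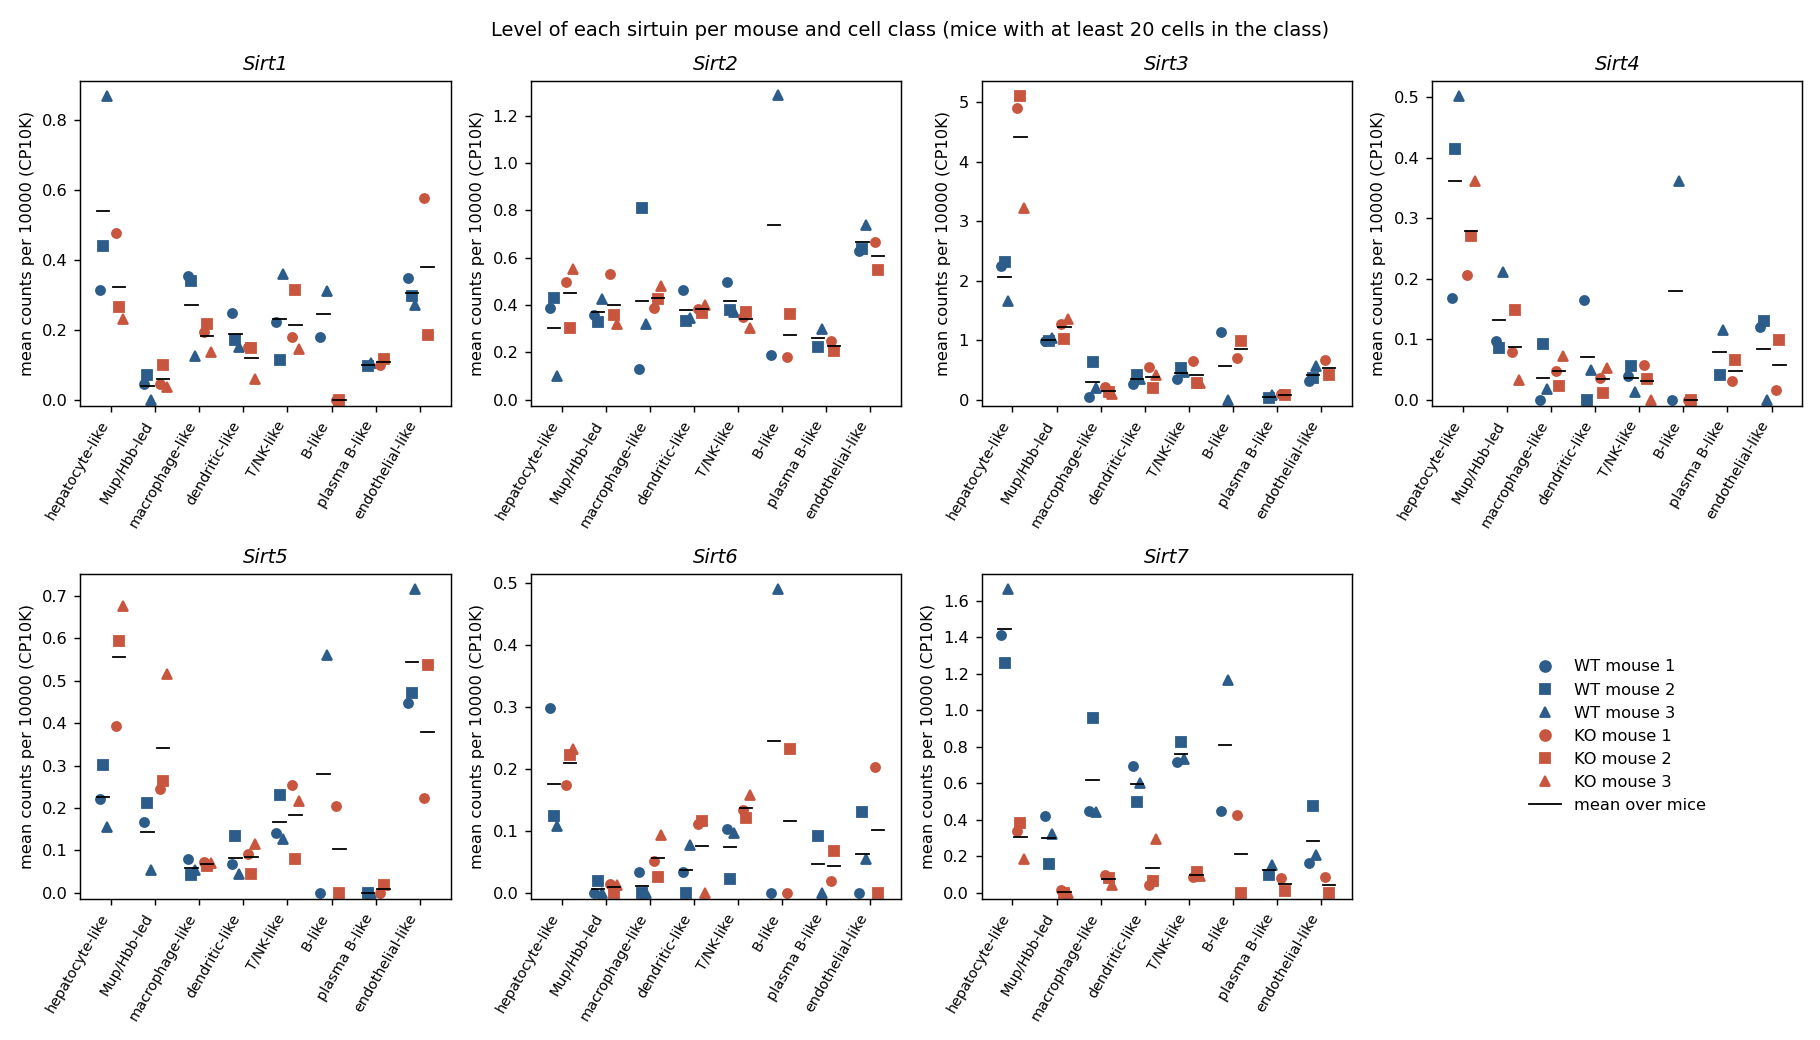
Levels of the 7 sirtuins in 8 cell classes. Each panel is 1 sirtuin, the horizontal axis the class and the vertical axis the mean CP10K of a mouse, with each point 1 mouse with at least 20 cells, colour the genotype and a line the mean. Sirt3 is highest in hepatocyte-like cells of the KO mice (3.22 to 5.10 CP10K), and the KO points of Sirt7 lie below the WT points in every class.

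Across cell classes, each sirtuin had its own pattern, and over the mice of both genotypes hepatocyte-like cells held the highest mean of Sirt1, Sirt3, Sirt4 and Sirt6, and endothelial-like cells that of Sirt2 and Sirt5. Sirt7, read in WT mice, was highest in hepatocyte-like cells. The first place changed within a genotype for 4 of them, on few UMIs or with wide spread. In WT mice Sirt6 averaged 0.245 CP10K in B-like cells, from 1 UMI in WT mouse 3 and none in WT mouse 1, against 0.176 in hepatocyte-like cells. Sirt2 averaged 0.739 in the B-like cells of WT mice, from 0.191 in WT mouse 1 (1 UMI) and 1.29 in WT mouse 3 (4 UMIs), against 0.667 in endothelial-like cells. In KO mice Sirt1 averaged 0.381 in endothelial-like cells, from 0.576 and 0.186 in the 2 mice, against 0.324 in hepatocyte-like cells. Sirt5 averaged 0.555 in hepatocyte-like and 0.379 in endothelial-like cells of KO mice, whose values overlapped. Each class was compared with the mean of the other classes by limma with the mouse as a factor, in the 6 mice for Sirt1 to Sirt6 (10915 genes) and in the 3 WT mice for Sirt7 (10842 genes). Of 48 such comparisons of Sirt1 to Sirt6, 16 passed an adjusted p of 0.05, with 9 higher and 7 lower. In them the Mup/Hbb-led cluster, also rich in hepatocyte markers, counted as a class of its own. It held the lowest mean of Sirt1 (0.0496 CP10K) and Sirt6 (0.00738), so the hepatocyte-like class does not stand for all cells rich in hepatocyte RNA. Differences between cell classes were common among all genes, and the counts are to be read against that background. It was 63.8% of genes in hepatocyte-like, 59.7% in plasma B-like, 59.2% in Mup/Hbb-led, 36.6% in macrophage-like, 35.4% in endothelial-like, 34.7% in B-like, 30.4% in dendritic-like and 25.8% in T/NK-like cells.

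Of the mitochondrial sirtuins, Sirt3, the main mitochondrial deacetylase, had the widest range of class means in CP10K. Its mean over mice was 3.24 ± 1.45 CP10K (SD, n = 6) in hepatocyte-like cells, 1.11 ± 0.163 (n = 6) in Mup/Hbb-led cells and 0.709 ± 0.506 (n = 4) in B-like cells. Endothelial-like (0.467), T/NK-like (0.433), dendritic-like (0.366), macrophage-like (0.219) and plasma B-like cells (0.0705) followed. The first step of this order, from hepatocyte-like to Mup/Hbb-led cells, passed the test between neighbours (log2 difference 1.40 ± 0.42, SE, limma adjusted p = 0.0051, where 47% of genes were called). So did the next, to B-like cells (1.29 ± 0.48, SE, limma adjusted p = 0.027, where 40.7% were called). None of the later steps passed, with the largest of them from dendritic-like to macrophage-like (0.86 ± 0.42, SE, limma unadjusted p = 0.0467, adjusted p = 0.2) and from macrophage-like to plasma B-like cells (0.97 ± 0.48, SE, limma unadjusted p = 0.0483, adjusted p = 0.0908). Against the mean of the other classes, Sirt3 was 2.98 log2 units higher in hepatocyte-like cells (SE 0.32, limma adjusted p = 2.3e-11), where the median of all genes was 0.28. It was 1.38 higher in Mup/Hbb-led cells (limma adjusted p = 0.000295, median of all genes -0.36). It was lower by 2.45 in plasma B-like cells (limma adjusted p = 1.11e-06, median of all genes -0.88) and by 1.34 in macrophage-like cells (limma adjusted p = 0.000786). In WT mice alone the hepatocyte-like difference was 2.58 (limma adjusted p = 0.000377) and in KO mice alone 3.36 (limma adjusted p = 2.26e-09), whereas the macrophage-like difference was -0.88 in WT mice alone (limma adjusted p = 0.252).

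Sirt4, which acts on glutamate dehydrogenase, ranged from 0.169 to 0.502 CP10K in hepatocyte-like cells, with a median of 0.316 over the 6 mice. Mup/Hbb-led cells followed at 0.0331 to 0.211 with a median of 0.0909. In each of the 6 mice their level was below that of the hepatocyte-like cells. The step between these clusters passed the test (log2 difference 1.24 ± 0.42, SE, limma adjusted p = 0.0123), and none of the later neighbours in the order did. Against the other classes, Sirt4 was 1.83 log2 units higher in hepatocyte-like cells (SE 0.32, limma adjusted p = 2.43e-06) and was called in no other class.

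Sirt5, which removes succinyl, malonyl and glutaryl groups and acts on the urea cycle enzyme CPS1, had its highest means over both genotypes in endothelial-like and hepatocyte-like cells. In endothelial-like cells it lay at 0.447, 0.471 and 0.717 CP10K in the WT mice (7, 9 and 7 UMIs) and 0.222 and 0.536 in the KO mice (4 UMIs each). KO mouse 1 was the lowest, and KO mouse 2 lay within the WT range. Its mean there was 0.479 ± 0.178 CP10K (SD, n = 5) and in hepatocyte-like cells 0.391 ± 0.208 (n = 6), a difference within the spread (log2 difference 0.44 ± 0.45, SE, limma adjusted p = 0.445, where 46.7% of genes were called). Against the other classes, Sirt5 was 1.75 log2 units higher in endothelial-like cells (SE 0.35, limma adjusted p = 6.51e-05, median of all genes 0.32) and 1.25 higher in hepatocyte-like cells (SE 0.32, limma adjusted p = 0.000807). The hepatocyte-like difference was 0.76 in WT mice alone (limma adjusted p = 0.205) and 1.78 in KO mice alone (limma adjusted p = 0.000918), and the endothelial-like one was 2.03 (limma adjusted p = 0.00215) and 1.31 (limma adjusted p = 0.0701). At the other end, plasma B-like cells held 1 UMI of Sirt5 in each genotype among 1040277 UMIs in WT and 1168568 in KO. Sirt5 was lower there by 2.0 log2 units (limma adjusted p = 4e-05) and lower in macrophage-like cells by 0.84 (limma adjusted p = 0.0363).

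Of the nuclear sirtuins, Sirt7 had its highest mean in the hepatocyte-like cells of the WT mice, 1.44 ± 0.205 CP10K (SD, n = 3). B-like (0.806), T/NK-like (0.759), macrophage-like (0.616) and dendritic-like cells (0.595) came next, then Mup/Hbb-led (0.299), endothelial-like (0.282) and plasma B-like cells (0.123). None of the 7 steps between neighbours in this order passed the test, while 12 of the 28 pairs of classes did, beside 28.6% of all genes over the same pairs. Sirt7 was 1.70 log2 units higher in hepatocyte-like cells than in the others (SE 0.34, limma adjusted p = 0.000261, background 44.4% of genes). It was lower by 0.90 in endothelial-like (SE 0.34, limma adjusted p = 0.0499, background 28.2%) and by 1.94 in plasma B-like cells (SE 0.42, limma adjusted p = 0.00083, background 37.8%, median of all genes -0.97). In the other classes, where it was not called, the background was 36.5% in Mup/Hbb-led, 27.5% in B-like, 23.4% in macrophage-like, 17.5% in dendritic-like and 12.9% in T/NK-like cells.

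Sirt1, a deacetylase of transcription factors and of the coactivator PGC-1α, ranged from 0.230 to 0.869 CP10K with a median of 0.377 over the hepatocyte-like cells of 6 mice. Endothelial-like (0.336), macrophage-like (0.228) and T/NK-like cells (0.223, means) followed, and Mup/Hbb-led cells were the lowest at 0.0496. No neighbouring pair in this order passed the test. Sirt1 was 1.27 log2 units higher in hepatocyte-like cells (SE 0.30, limma adjusted p = 0.000285) and 0.83 higher in endothelial-like cells (SE 0.33, limma adjusted p = 0.0408). It was lower by 1.28 in Mup/Hbb-led cells (SE 0.30, limma adjusted p = 0.0003), so the clusters richest in hepatocyte markers lay at opposite ends for this gene. The pair itself differed by 2.23 ± 0.39 (SE, limma adjusted p = 4.27e-06). Sirt1 was also lower by 1.01 in B-like cells (limma adjusted p = 0.027), on 2 UMIs in all, and in WT mice alone that difference was 0.25 in the other direction (limma adjusted p = 0.734).

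Sirt6, a chromatin-bound deacetylase, had the same split. It ranged from 0.108 to 0.298 CP10K in hepatocyte-like cells, and Mup/Hbb-led cells held 4 UMIs of Sirt6 in 1750 cells. The difference between these clusters was 2.04 ± 0.45 log2 units (SE, limma adjusted p = 0.000137). Against the other classes Sirt6 was 1.28 higher in hepatocyte-like (SE 0.34, limma adjusted p = 0.0011) and lower by 1.05 in Mup/Hbb-led cells (limma adjusted p = 0.00729). Sirt2, the mainly cytosolic member, was the most even. Its mean lay between 0.378 and 0.425 CP10K in hepatocyte-like, T/NK-like, dendritic-like, Mup/Hbb-led and macrophage-like cells. Endothelial-like cells held 0.547 to 0.737 (5 mice, mean 0.644) and plasma B-like cells 0.207 to 0.299 (4 mice, mean 0.244), and this was the only one of 28 pairs of classes that passed for Sirt2 (1.29 ± 0.41, SE, limma adjusted p = 0.00642, where 56.6% of genes were called and the median was 1.11). Against the other classes, Sirt2 was 0.81 higher in endothelial-like cells (limma adjusted p = 0.0252). Of the 28 pairs, 18 passed for Sirt3, 16 for Sirt5, 12 for Sirt1 and 7 each for Sirt4 and Sirt6, beside 40.7% of all genes over the same pairs.

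Some calls between classes depended on how the level of a class was set. With each combination of mouse and class centred on the median of its genes, 7 calls no longer passed while keeping their sign. Sirt6 was then 0.79 log2 units higher in hepatocyte-like cells (limma adjusted p = 0.0511), Sirt2 and Sirt1 were 0.18 and 0.20 higher in endothelial-like cells, and Sirt6 was lower by 0.64 in Mup/Hbb-led cells. In plasma B-like cells, Sirt5 was lower by 0.97 and Sirt7 by 0.80, and in B-like cells Sirt1 was lower by 0.82. Leaving out single mice also ended calls. Sirt1 in B-like cells (-0.58 and -0.61) was not called without KO mouse 1 or 2, nor Sirt1 in endothelial-like cells without KO mouse 1 (0.56), WT mouse 1 (0.87) or WT mouse 2 (0.85). Sirt2 in endothelial-like cells was not called without KO mouse 1 or 2 or WT mouse 1 or 2 (0.75 to 0.85). Sirt5 in macrophage-like cells was not called without KO mouse 1 or 3 or WT mouse 2 (-0.85 to -0.74). Sirt7 was not called in endothelial-like cells without WT mouse 1 (-0.72) or 3 (-0.66), or in plasma B-like cells without WT mouse 2 (-1.71).

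**Figure D2:**
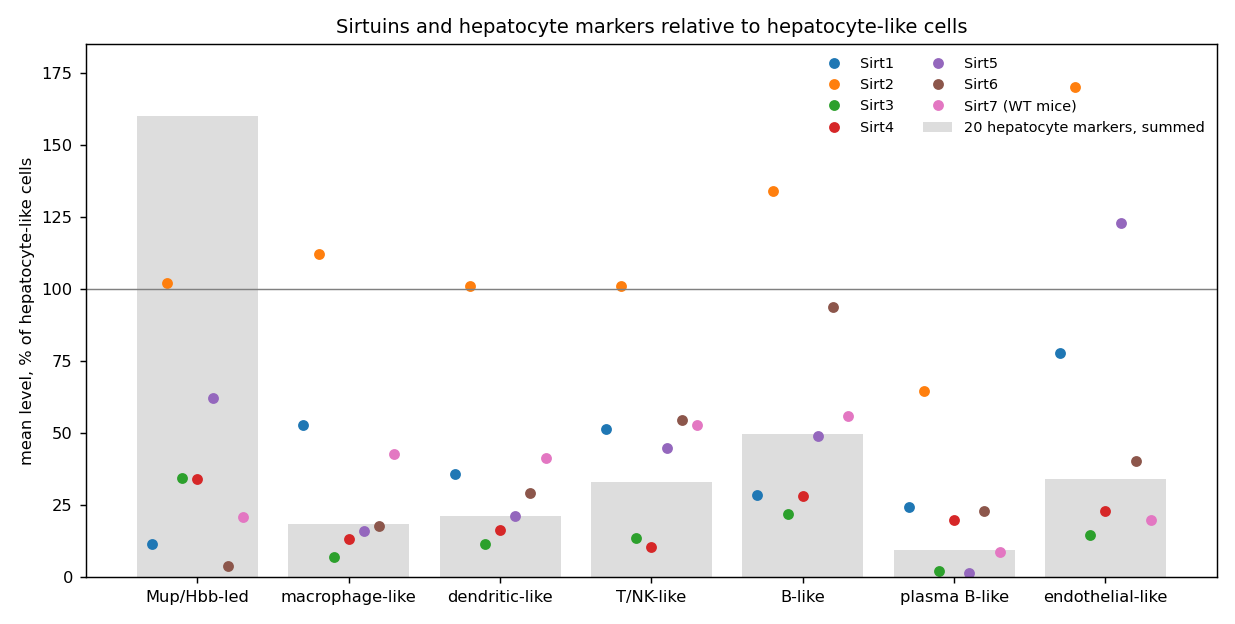
Each sirtuin in 7 classes as a percentage of its level in hepatocyte-like cells, beside the sum of 20 hepatocyte markers. Values are means over the mice of both genotypes, also for the markers, except that Sirt7 is over WT mice alone. Sirt3 lies below the marker sum in each class, and Sirt2 lies near or above 100% in every class but plasma B-like cells.

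Hepatocyte RNA was found in every class. The summed level of the 20 hepatocyte markers was 536 CP10K in hepatocyte-like and 858 in Mup/Hbb-led cells. All 20 were detected in each class, with Alb the most abundant of them in hepatocyte-like cells and Fabp1 in the other classes. In the other classes it was 49.5% of the hepatocyte-like sum in B-like, 33.9% in endothelial-like, 33.1% in T/NK-like, 21.2% in dendritic-like, 18.5% in macrophage-like and 9.29% in plasma B-like cells. Sirt3 stood at 21.9%, 14.4%, 13.4%, 11.3%, 6.76% and 2.18% of its hepatocyte-like level in the same classes, below the marker sum in each. In Mup/Hbb-led cells the marker sum was 160% and Sirt3 34.3% of the hepatocyte-like level. Sirt4 was also below it, except in plasma B-like cells (19.8%). Sirt5 was above it in endothelial-like (123%) and T/NK-like cells (44.8%), and Sirt1 was above it in each of these classes but B-like cells. Sirt7 of the WT mice exceeded the marker sum in B-like (56%), T/NK-like (52.7%), macrophage-like (42.8%) and dendritic-like cells (41.3%) and lay below it in endothelial-like (19.6%) and plasma B-like cells (8.54%). Sirt6 was below it in macrophage-like cells alone (17.5%), on few UMIs in these classes, and Sirt2 exceeded it in all 6. The part of free hepatocyte RNA in these values was not tested.

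The sirtuins were then compared between KO and WT mice within each class. Of the 48 pairs of Sirt1 to Sirt6 with a class, 41 had a mean of at least 0.05 CP10K and were tested. None of the 41 passed an adjusted p of 0.05 in limma on mouse means, nor in limma's voom on summed UMIs, and 2 of the 41 had an unadjusted p under 0.05, Sirt3 and Sirt5 in hepatocyte-like cells. The same limit was met by 7.68% of all genes over the 8 classes and by 9.71% of genes in hepatocyte-like cells. The lowest adjusted p was 0.315. The log2 fold change was above 0 in 21 pairs and below 0 in 20. Among 33 of these pairs, 24 changed sign under some alternative of the processing. The pairs left out of this count kept their sign. They were Sirt3 and Sirt5 in hepatocyte-like and Mup/Hbb-led, Sirt2 and Sirt6 in T/NK-like, Sirt3 in plasma B-like and Sirt1 in B-like cells. All but Sirt3 in Mup/Hbb-led cells were pairs whose mice did not overlap, where leaving out a mouse cannot change the sign. The 7 pairs under the limit were Sirt1 and Sirt6 in Mup/Hbb-led, Sirt4 and Sirt6 in macrophage-like, Sirt4 in T/NK-like, and Sirt5 and Sirt6 in plasma B-like cells. Among the tested pairs, the mice did not overlap in 5 with higher and 2 with lower KO values. Higher KO values without overlap were met by 12.5% of all genes in hepatocyte-like and 7.75% in Mup/Hbb-led cells. In T/NK-like cells it was 5.27% of genes, in plasma B-like 25.5%, in B-like 16.3%, in endothelial-like 9.54%, in macrophage-like 7.13% and, lowest, in dendritic-like cells 4.12%.

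**Figure D3:**
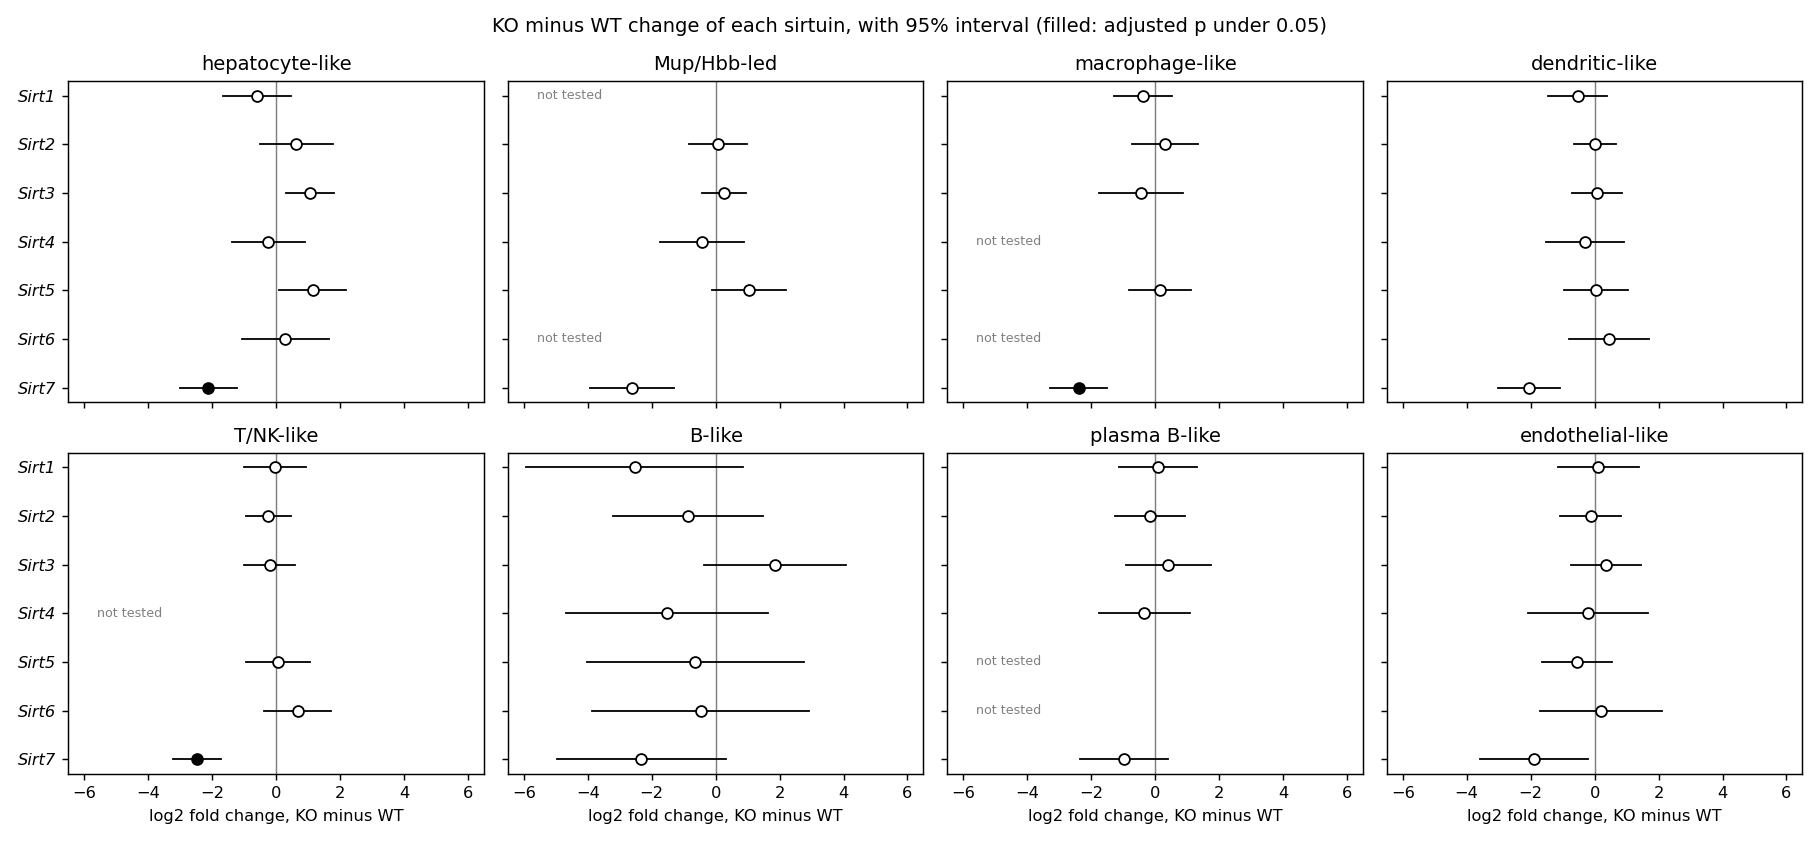
Log2 fold change, KO minus WT, of each sirtuin in each class (points) with its 95% interval from limma (bars), filled where the adjusted p was under 0.05, on a horizontal axis in log2 units. Sirt7 lies left of 0 in all 8 classes, and the intervals of Sirt3 and Sirt5 in hepatocyte-like cells lie right of 0 with adjusted p of 0.315 and 0.457.

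Sirt3 in hepatocyte-like cells lay at 2.25, 2.31 and 1.65 CP10K in the WT mice (193, 67 and 13 UMIs) and at 4.90, 5.10 and 3.22 in the KO mice (316, 24 and 376 UMIs). Each KO mouse was above each WT mouse, with a KO mean of 2.13 times the WT mean. The log2 fold change was 1.06 (SE 0.37, 95% interval 0.30 to 1.82), the unadjusted p in limma 0.00802 and the adjusted p 0.315. The median log2 fold change of all genes in these cells was 0.18. In the Mup/Hbb-led cells, Sirt3 lay at 0.989, 0.981 and 1.04 CP10K in WT and at 1.27, 1.02 and 1.36 in KO. KO mouse 2 lay within the WT range, and the log2 fold change was 0.26 ± 0.33 (SE, limma adjusted p = 0.799). With both clusters taken as 1 class, it was 0.83 ± 0.39 (SE, limma adjusted p = 0.678). The genes that overlap Sirt3 did not pass in hepatocyte-like cells, with a log2 fold change of -0.46 ± 0.47 for Psmd13 (limma adjusted p = 0.781) and 0.68 ± 0.51 for Ric8a (limma adjusted p = 0.689).

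Sirt5 in hepatocyte-like cells lay at 0.221, 0.301 and 0.156 CP10K in WT (20, 8 and 2 UMIs) and at 0.394, 0.595 and 0.677 in KO (22, 4 and 84 UMIs). The groups did not overlap, with a KO mean of 2.46 times the WT mean. This log2 fold change was 1.14 (SE 0.51, 95% interval 0.09 to 2.19), the unadjusted p in limma 0.0347 and the adjusted p 0.457. In Mup/Hbb-led cells Sirt5 lay at 0.168, 0.212 and 0.0522 CP10K in WT and at 0.244, 0.264 and 0.517 in KO. These groups did not overlap either, and the log2 fold change was 1.06 ± 0.56 (SE, limma adjusted p = 0.507). WT mouse 3, the lowest, held 1 UMI, and without it the log2 fold change was 0.65. With both clusters as 1 class it was 1.08 ± 0.43 (SE, limma adjusted p = 0.65).

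**Figure D4:**
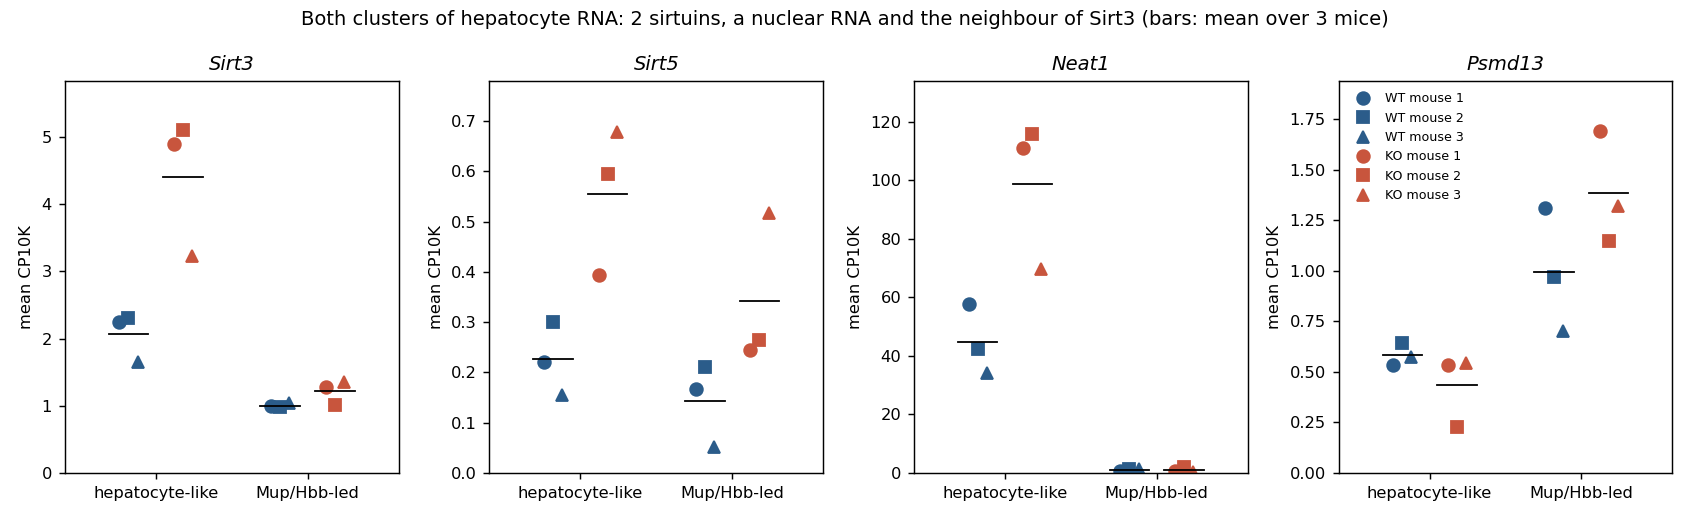
Sirt3, Sirt5, the nuclear RNA Neat1 and Psmd13, which overlaps Sirt3, in the hepatocyte-like and Mup/Hbb-led clusters, with 1 point per mouse, a line at the mean of each genotype and the vertical axis in CP10K. KO points of Sirt3 lie above the WT points in hepatocyte-like cells (3.22 to 5.10 against 1.65 to 2.31) and overlap them in Mup/Hbb-led cells.

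Other values of the hepatocyte-like cells stood beside these. The nuclear RNA Neat1 lay at 57.9, 42.4 and 34.3 CP10K in WT and at 111, 116 and 69.6 in KO, without overlap (log2 fold change 1.14 ± 0.36, SE, limma adjusted p = 0.249). Fos, an immediate early gene, lay at 3.41, 1.66 and 1.18 CP10K in WT and at 0.336, 0 and 0.00626 in KO, also without overlap. Malat1 overlapped between the genotypes (0.23 ± 0.34, SE, limma adjusted p = 0.847). The summed hepatocyte markers averaged 647 CP10K in WT and 425 in KO. The 9 neutrophil markers, all detected and led by S100a9, summed to 0.101, 0.17 and 0.032 CP10K in WT and to 13.2, 7.61 and 0.281 in KO. Of the 721 KO cells, 271 came from KO mouse 3, with a median of 3823 UMIs per cell against 935 to 2789 in the other 5 mice. Their part in the values of Sirt3 and Sirt5 was not tested.

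Whether the KO minus WT difference of a sirtuin was larger in hepatocyte-like cells than in another class was tested on the differences between classes within each mouse. None of 16 such tests passed in limma, 1 had an unadjusted p under 0.05, and 0% of genes were called in each of the 3 comparisons. For Sirt3 the difference was 1.27 log2 units against T/NK-like cells (SE 0.52, limma unadjusted p = 0.0342, adjusted p = 0.639) and 1.5 against macrophage-like cells (SE 0.71, limma adjusted p = 0.592). Against Mup/Hbb-led cells it was 0.80 (SE 0.58, limma adjusted p = 0.574). For Sirt7 the fall in hepatocyte-like cells differed from that in macrophage-like cells by 0.27 (SE 0.54, limma adjusted p = 0.904), and from that in T/NK-like cells by 0.35 (SE 0.50, limma adjusted p = 0.865).

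The other tested pairs of Sirt1 to Sirt6 had wide intervals or estimates near 0. In hepatocyte-like cells, Sirt1 had a log2 fold change of -0.60 (95% interval -1.66 to 0.45), Sirt2 of 0.63 (-0.50 to 1.77), Sirt4 of -0.24 (-1.39 to 0.90) and Sirt6 of 0.29 (-1.06 to 1.64). In the other classes the smallest standard errors were those of Sirt2 in dendritic-like cells (0.02, 95% interval -0.64 to 0.68), Sirt3 in Mup/Hbb-led cells (given above) and Sirt2 in T/NK-like cells (-0.25, -0.95 to 0.45). In the T/NK-like cells Sirt2 did not overlap between the genotypes, at 0.5, 0.381 and 0.373 CP10K in WT and 0.349, 0.372 and 0.304 in KO, though WT mouse 3 and KO mouse 2 were close to equal, and without WT mouse 1 the log2 fold change was -0.13. Sirt6 in T/NK-like cells lay at 0.102, 0.0222 and 0.0970 CP10K in WT and 0.133, 0.120 and 0.158 in KO, also without overlap, with a log2 fold change of 0.67 ± 0.48 (SE, limma adjusted p = 0.835). The values of WT mouse 2 and KO mouse 3 rested on 1 UMI each, and without WT mouse 2 the log2 fold change was 0.32. Sirt3 in plasma B-like cells, higher in KO on 15 UMIs in all (log2 fold change 0.41, and 0.09 without WT mouse 2, which leaves 1 WT mouse), and Sirt1 in B-like cells, with 2 UMIs in WT and none in KO, also did not overlap. Changes within these intervals were not told apart from 0 here. The part of depth, of the number of mice and of their spread in the intervals was not tested.

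The genes around the sirtuins were read from 5 lists: NAD+ synthesis and transport, other NAD+ consumers, zinc-dependent histone deacetylases, and substrates of mitochondrial and of nuclear or cytosolic sirtuins. Of 551 tests of list genes over the 8 classes, none passed an adjusted p of 0.05 in limma, beside 0.192% of all genes over the same classes. An unadjusted p under 0.05 was met by 61 of them (11.1%), beside 7.68% of all genes, a share that ran from 3.67% in B-like to 10.6% in macrophage-like cells. In voom, 2 list tests passed (0.363%), beside 0.861% of all genes. Without KO mouse 1, 22 of 547 passed in limma (4.02%), beside 0.993% of all genes. In hepatocyte-like cells, 11 of 19 NAD+ synthesis genes had a log2 fold change above 0 (median 0.06), 12 of 14 NAD+ consumers (median 0.51), 9 of 9 histone deacetylases (median 0.55), 5 of 16 mitochondrial substrates (median -0.26) and 10 of 16 nuclear or cytosolic substrates (median 0.29), beside a median of 0.18 and 59.8% above 0 over all genes. Tdo2, the first enzyme of NAD+ synthesis from tryptophan, averaged 17.5 ± 2.27 CP10K in WT and 9.39 ± 2.54 in KO (SD, n = 3 each; log2 fold change -0.93, limma adjusted p = 0.376). Cps1, the urea cycle enzyme on which SIRT5 acts, averaged 16.3 ± 3.41 and 12.1 ± 7.96 (log2 fold change -0.77, limma adjusted p = 0.698). Srebf1, the lipid synthesis regulator SREBP-1, averaged 2.70 ± 0.829 and 5.67 ± 2.70 (log2 fold change 0.95, limma adjusted p = 0.448).

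In macrophage-like cells, 4 of 16 NAD+ synthesis genes were above 0 (median -0.81) and 2 of 17 mitochondrial substrates (median -0.55), beside a median of -0.03 and 47.2% above 0 over all genes. The NAD+ consumers were above 0 in 9 of 14 (median 0.39), the nuclear or cytosolic substrates in 9 of 15 (median 0.03) and the histone deacetylases in 3 of 9 (median -0.05). Nampt, the rate-limiting enzyme of NAD+ salvage, averaged 2.81 ± 0.705 CP10K in WT and 2.15 ± 0.531 in KO (log2 fold change -0.38, limma adjusted p = 0.596), and the NAD+ glycohydrolase Cd38 3.46 ± 0.582 and 2.98 ± 0.441 (-0.21, limma adjusted p = 0.745). Nr1h3, the oxysterol receptor LXR alpha, averaged 8.46 ± 1.42 and 5.52 ± 0.615 (-0.60, limma adjusted p = 0.241). Tdo2 averaged 2.59 ± 0.607 in WT and 0.750 ± 0.562 in KO (-2.02, limma adjusted p = 0.254). The sum of the 20 hepatocyte markers in these macrophage-like cells was 138 CP10K in WT and 60.3 in KO, and its part in these medians was not tested. Mitochondrial substrates were above 0 in 2 of 16 genes in T/NK-like cells (median -0.59) and 1 of 17 in dendritic-like cells (median -0.50), where the medians of all genes were -0.06 and -0.04, 44.8% and 46.2% of all genes were above 0, and the marker sum was 220 against 135 and 138 against 89.5. In endothelial-like cells it was 4 of 16 (median -0.42, marker sum 215 against 133), beside a median of -0.05 and 46.9% above 0 over all genes. In plasma B-like cells it was 3 of 16 (median -0.51, marker sum 64 against 35.6), beside 0.22 and 64.4%. B-like cells had a like median (-0.52, 5 of 17) with marker sums of 274 in WT and 256 in KO, beside 0.08 and 53% over all genes. Mup/Hbb-led cells had a median of -0.03 (8 of 16, marker sum 852 against 864). In the Mup/Hbb-led cells the NAD+ synthesis genes had a median of -0.49 (6 of 17 above 0), beside a median of -0.09 and 44.1% above 0 over all genes. There the NAD+ consumers were above 0 in 3 of 13 (median -0.34), nuclear or cytosolic substrates in 2 of 13 (-0.22) and histone deacetylases in 4 of 5 (0.50). NAD+ synthesis genes were above 0 in 9 of 16 in B-like cells (median 0.02). It was 4 of 17 in T/NK-like (-0.70), 4 of 14 in dendritic-like (-0.27), 3 of 18 in endothelial-like (-0.37) and 4 of 11 in plasma B-like cells (-0.32).

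Over the 46 combinations of mouse and class with at least 20 cells, the genes whose pattern was most like that of a sirtuin were found by Pearson's r of log2(CP10K + 0.05), among genes averaging 0.5 CP10K or more. These values describe samples that share libraries and depth and carry no test. For Sirt3 they included Arl4a (r = 0.873) and Slc25a25 (0.866). For Sirt1 they were Taz (0.859), Mprip (0.844) and Uhrf2 (0.79), and for Sirt7, over the 23 WT combinations, Srsf11 (0.807), Gtpbp4 (0.792) and Tnrc6a (0.788). Sirt2 was most like Dars (0.74), Sirt4 like Sco2 (0.726), Sirt5 like Tprkb (0.751) and Sirt6 like Rps6kb1 (0.664). Among the sirtuins themselves, r was highest between Sirt1 and Sirt6 (0.45) and between Sirt3 and Sirt5 (0.426), and lowest between Sirt2 and Sirt3 (0.00507).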

How the data were processed

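The authors aligned the reads with Cell Ranger 6.0.0 to mm10 (per the labels), left out cells under 500 genes or with over 5% mitochondrial reads, brought every cell to 10000 counts and deposited the natural log of the result plus 1. Undoing the natural log gave sums of 10000 in every cell, and all 12961041 values above 0 were whole UMIs within 0.02. The unit was checked by name on a few gene columns, and all gene columns were used. Of 11597 barcodes, 13 were shared by 2 or more mice.

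Cells were clustered with scanpy 1.11.5 and leidenalg 0.10.2 (1000 variable genes without the sirtuins, 50 components, 3 neighbors from each mouse, resolution 0.35) and named from fixed markers. Rebuilt names may differ from the study's own. Scrublet marked too few cells to be taken as working, so doublets were kept. Neutrophil-like and stellate-like cells were not compared.

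Mouse means of CP10K plus 0.05 were taken as log2 and compared with limma 3.58.1 (R 4.3.3, lmFit, eBayes with trend and robust, two-sided, Benjamini-Hochberg over all genes averaging 0.05 CP10K or more). The fit was tested on simulated data, and the outcome is not reported here. Likeness genes were taken from the 3 of highest r for each sirtuin, and since no list gene passed, those named were among the 2 most abundant of a list in a class. Some of these genes are not reported here. The members, the lists and these rules were chosen with earlier results of these data known. Alternatives changed the pseudocount, filter, scaling, model, clusters, cell minimum and mice. Loci are from GENCODE M21.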

Additional observations from a re-analysis of the deposited data

How the results depend on the processing

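For Sirt7 between KO and WT, the direction held under every alternative run and its side of the threshold often did not. In hepatocyte-like cells the call was lost with a pseudocount of 0.01 (-2.27, adjusted p = 0.0867 in limma), with no filter on low values (-2.13, 0.0861) or a filter at 0.2 CP10K (-2.13, 0.0665), at resolution 0.8 (-1.85, 0.112), with at least 50 cells (-2.02, 0.106) and with both clusters of hepatocyte RNA as 1 class (-2.07, 0.111, chosen after seeing the data). In macrophage-like cells it was lost with a pseudocount of 0.01 (-2.90, 0.0602) or 0.2 (-1.53, 0.0528), with no filter (-2.39, 0.374) and with at least 50 cells (-2.05, 0.139). Calls were gained with voom in Mup/Hbb-led (-3.93, 0.0179) and dendritic-like cells (-3.11, 0.0238), and with cell-number weights, also chosen after seeing the data (-2.48, 2.99e-05, and -2.62, 0.0373). Leaving out 1 mouse at a time gave -2.30 to -1.86 in hepatocyte-like, -2.57 to -2.05 in macrophage-like, -2.54 to -2.41 in T/NK-like, -2.95 to -2.36 in Mup/Hbb-led, -2.63 to -1.69 in dendritic-like, -2.62 to -1.17 in endothelial-like, -3.96 to -0.70 in B-like and -1.54 to -0.40 in plasma B-like cells. Leaving out cells over 1000 CP10K of hemoglobin, likewise chosen after seeing the data, changed no call of Sirt7. The cause of these shifts was not tested.

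No sirtuin but Sirt7 was called under any of 19 alternatives. Sirt3 and Sirt5 in hepatocyte-like cells stayed above 0 in each, and with both clusters as 1 class. Their log2 fold changes lay at 0.59 to 1.27 and 0.16 to 1.35, with lowest adjusted p of 0.0568 and 0.122 in limma. Since their mice did not overlap, leaving out a mouse could not change the sign. Calls of Sirt1 to Sirt6 between classes numbered 16 at first, 9 in WT mice alone, 12 to 21 without 1 mouse and at most 23, with cell-number weights. In WT mice alone Sirt1 in B-like cells reversed to 0.25. Leaving out mice included, the call was lost under 8 alternatives each for Sirt7, Sirt1 and Sirt2 in endothelial-like and Sirt5 in macrophage-like cells, 7 for Sirt1 in B-like, 3 for Sirt6 in Mup/Hbb-led and 2 for Sirt7 in plasma B-like cells. Sirt5 in endothelial-like and Sirt1 in Mup/Hbb-led cells lost it in KO mice alone, Sirt5 in hepatocyte-like and Sirt3 in macrophage-like cells in WT mice alone, and Sirt3 in Mup/Hbb-led cells with the mean of logged values (0.10, adjusted p = 0.165 in limma). Sirt6 in hepatocyte-like and Sirt5 in plasma B-like cells lost it after median-centring. Of the list tests, none passed at first (0.192% of all genes did). The counts elsewhere, each with the share of list tests and of all genes, were 1 with a pseudocount of 0.2 (0.181%, 0.262%), after median-centring (0.181%, 0.133%) and at resolution 0.8 (0.182%, 0.164%), 2 with voom (0.363%, 0.861%), 3 with no filter (0.466%, 0.222%), 5 with the mean of logged values (0.907%, 0.331%) and 7 with cell-number weights (1.27%, 2.34%). Leaving out 1 mouse gave 0 to 22, with 1 without KO mouse 3 (0.18%, 0.441%), 5 without WT mouse 3 (0.914%, 1.14%) and 22 without KO mouse 1 (4.02%, 0.993%). The number of genes called, and with it the background share of each class, moved widely: from 28 to between 6 and 760 in hepatocyte-like, 41 to 2 and 927 in Mup/Hbb-led, 6 to 1 and 706 in plasma B-like, 20 to 1 and 138 in macrophage-like, 36 to 3 and 256 in endothelial-like, 11 to 6 and 137 in T/NK-like, 3 to 0 and 132 in dendritic-like and 1 to 0 and 3 in B-like cells. The highest counts of endothelial-like, T/NK-like and dendritic-like cells came without KO mouse 1, and that of plasma B-like cells without WT mouse 3. For endothelial-like and plasma B-like cells this leaves 1 mouse in a group, which is assumed to vary like the others.

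WT and KO mice share replicate numbers, and same-numbered mice did not deviate together (correlations from -0.158 to 0.0821), so the numbers were not taken as pairs. With the replicate block, the call of Sirt7 was lost in T/NK-like cells (-2.47, adjusted p = 0.0545 in limma). It held in hepatocyte-like (-2.13, 0.00446) and macrophage-like cells (-2.39, 0.00166). Sirt7 was not called in dendritic-like (-2.06, 0.0516), endothelial-like (-2.02, 0.433) or Mup/Hbb-led cells (-2.61, 0.433). With this block 7 list genes passed (1.66%, beside 0.722% of all genes). Calls over all genes numbered 93 in hepatocyte-like, 138 in macrophage-like, 151 in endothelial-like, 35 in dendritic-like, 8 in T/NK-like and 2 in Mup/Hbb-led cells.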

Other observations

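Sirtuins in the classes that were too small to compare are given as summed UMIs. Neutrophil-like cells (299 cells) held 3 UMIs of Sirt7 among 72929 in the WT mice and 5 among 652925 in the KO mice, and 2 and 7 UMIs of Sirt3. Stellate-like cells (40 cells) held 1 UMI of Sirt7 in each genotype and none of Sirt3, which with 30230 UMIs in WT and 49216 in KO allows up to 1.22 and 0.75 per 10000 by the exact Poisson 95% interval.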
